A study of Mus musculus with 6 samples.

Results

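Prostaglandin and leukotriene metabolism was read from 10 named genes that make, inactivate or hydrolyse lipid mediators of the arachidonic acid pathways: Hpgd, Ptgr1, Ephx2, Ltc4s, Ptgs1, Ptgs2, Alox5, Alox5ap, Lta4h and Ptgis. A probe set was taken where its gene symbol was exactly one of these names. This gave 8 probe sets for 7 of the 10 genes, out of 8251 genes that the array's annotation names by a probe set with 1 symbol. The cyclooxygenase gene Ptgs1, the lipoxygenase gene Alox5 and its activating protein gene Alox5ap had no such probe set and were not analysed here. The genes had been proposed with the difference between the genotypes known, so their null against control values are a description.

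The samples were the entire small intestine of 3 Cftr null (-/-) and 3 Cftr control (+/+) mice, 40 days old and congenic on the black6 background, with 1 mouse per array. Cftr encodes an epithelial chloride and bicarbonate channel, and per the labels all mice of both genotypes were kept on Peptamen, a liquid diet, from age 10 days as a guard against blockage of the gut. Each group held 2 males and 1 female, the females being null replicate 2 and control replicate 3. Replicate numbers only name the mice, in the order of deposit. The labels do not say which part of Cftr the null allele lacks. The brightest Cftr probe set was at 325.9, 295.6 and 368.5 in null mice, against 801.6, 1017.5 and 1002.0 in control mice. The 2%-trimmed mean intensity was 500.3 on each of the 6 arrays, and no pair of arrays was identical. With 3 mice a group, every mean and interval is only as precise as that number allows. Values are intensities in arbitrary units, and a log2 difference is null minus control on the log2(value + 12) scale, which understates the change of dim genes.

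Phospholipases free arachidonic acid from membranes, and cyclooxygenases turn it into prostaglandin H, from which terminal synthases make the prostaglandins, prostacyclin and thromboxane. In the parallel branch, 5-lipoxygenase makes leukotriene A, which is hydrolysed to leukotriene B or joined to glutathione as a cysteinyl leukotriene. In the gut, prostaglandins take part in mucosal protection, fluid secretion and blood flow, and leukotrienes in the recruitment of leukocytes and the contraction of smooth muscle. Both kinds of mediator act near their source and are inactivated by oxidation and reduction, while epoxides, a further branch, are turned into diols by epoxide hydrolase.

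In the intestine of null mice the transcripts of 2 prostaglandin-inactivating enzymes (Hpgd and Ptgr1), of the soluble epoxide hydrolase (Ephx2) and of leukotriene C synthase (Ltc4s) were lower than in control mice. That of leukotriene A hydrolase (Lta4h) was at nearly the same level in all 6 mice. The cyclooxygenase Ptgs2 and prostacyclin synthase Ptgis stayed under the filter level of 109.7 on every array. In the limma fit over all 7601 probe sets that passed the filter on low values, 4 of the 5 enzyme probe sets tested were past the threshold (adjusted p under 0.05) and lower in null mice, where 1.87% of all probe sets tested were. None was past it in the other direction, where 1.13% of all probe sets were, and at an unadjusted p under 0.05 the number higher was also 0. These genes were chosen with this contrast in view, so the count is given beside its background and nothing is read from it. All 5 were above the filter level on all 6 arrays, so none was let in by one group alone. The median log2 difference of the 5 was -1.54, against 0.03 over all probe sets tested.

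**Figure D1:**
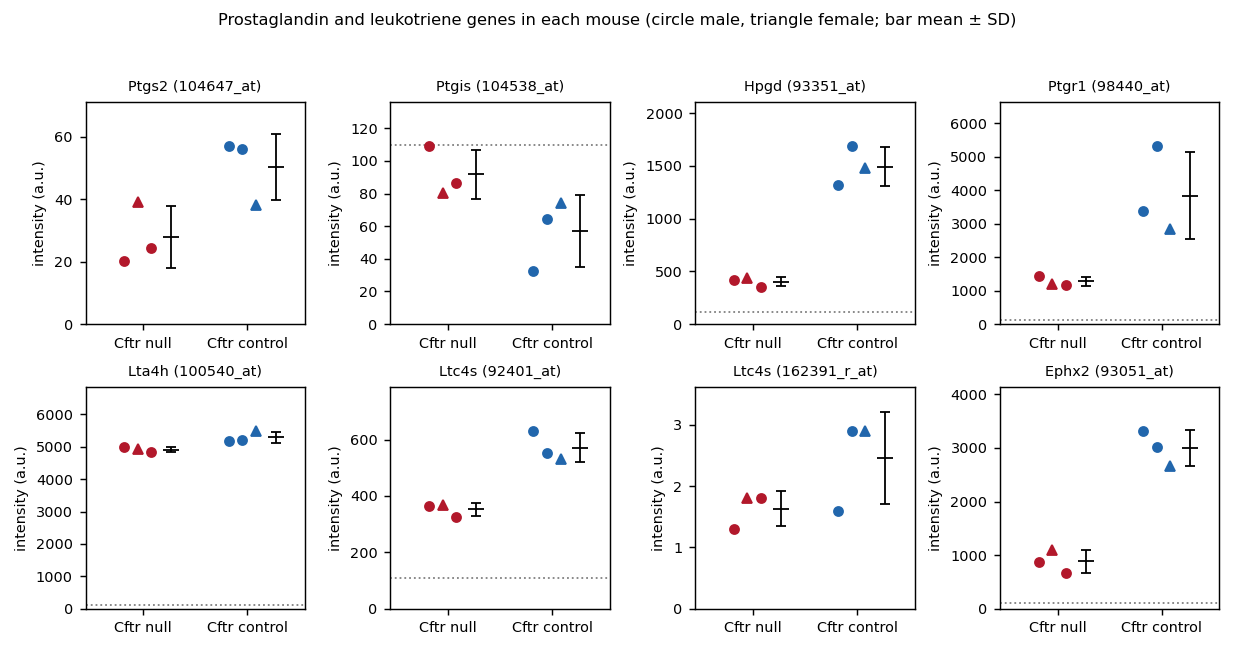
Intensity (arbitrary units, linear axis from 0) of the 8 probe sets in each mouse, with Cftr null mice in red on the left and Cftr control mice in blue on the right of each panel. Circles are males, triangles females, black bars the mean ± SD (n = 3), and the dotted line, where it fits, the filter level of 109.7. Hpgd, Ptgr1, Ltc4s (the brighter probe set) and Ephx2 lie lower in all 3 null mice than in any control mouse, while Lta4h lies between 4827 and 5490 throughout.

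The bases just before the annotated transcription start are shown for 3 genes that were lower together and for Lta4h, the tested gene whose level was nearly the same, so that their sequence can be read beside their levels. Each is the 250 bases before the start, 5′ to 3′ on the gene's own strand, from RefSeq with build GRCm38.p6, and 5 of the 7 genes matched the sequence table. They lie at chr8:56294302-56294551 (plus strand) for Hpgd, chr4:58987079-58987328 (minus strand) for Ptgr1, chr11:50238533-50238782 (minus strand) for Ltc4s and chr10:93453146-93453395 (plus strand) for Lta4h. Capitals mark the GC box, the one searched motif with a match in these 4 windows.
Hpgd: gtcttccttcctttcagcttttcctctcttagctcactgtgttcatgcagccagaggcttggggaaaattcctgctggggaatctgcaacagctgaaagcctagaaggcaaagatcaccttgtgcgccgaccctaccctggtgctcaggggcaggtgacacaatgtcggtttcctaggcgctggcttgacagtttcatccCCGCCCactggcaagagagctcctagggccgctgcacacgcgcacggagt
Ptgr1: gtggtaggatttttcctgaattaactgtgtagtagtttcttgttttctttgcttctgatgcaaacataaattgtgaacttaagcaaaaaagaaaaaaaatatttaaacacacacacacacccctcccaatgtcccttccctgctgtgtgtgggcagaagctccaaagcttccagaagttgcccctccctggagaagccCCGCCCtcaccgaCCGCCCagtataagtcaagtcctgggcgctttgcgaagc
Ltc4s: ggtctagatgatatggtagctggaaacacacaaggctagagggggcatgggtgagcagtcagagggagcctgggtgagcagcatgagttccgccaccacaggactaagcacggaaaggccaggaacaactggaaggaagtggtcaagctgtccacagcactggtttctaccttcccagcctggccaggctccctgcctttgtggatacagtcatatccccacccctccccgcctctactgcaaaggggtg
Lta4h: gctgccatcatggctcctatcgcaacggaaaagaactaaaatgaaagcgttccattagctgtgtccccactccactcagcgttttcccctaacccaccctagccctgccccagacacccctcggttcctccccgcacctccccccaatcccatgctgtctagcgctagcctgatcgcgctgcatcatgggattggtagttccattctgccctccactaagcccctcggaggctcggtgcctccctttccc

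A total of 5 motifs were searched on both strands: the GC box GGGCGG, the TATA box TATAAA, the E-box CACGTG, the core of the antioxidant response element (TGAC, any 3 bases, then GC) and direct repeat 1 (AGGTCA repeated after 1 base). No pair of matches overlapped. Hpgd held 1 GC box, from 50 to 45 bases before the start, and Ptgr1 held 2, from 52 to 47 and from 39 to 34 bases before it, all as the reverse complement CCGCCC. Ltc4s and Lta4h held none of the 5 motifs in these windows. The window of Ptgs2, the fifth gene that matched, is not shown; it held 1 GC box, from 170 to 165 bases before the start, so the motif also stood before a gene that was too dim to be tested. Over the 32851 promoter windows of the same length in the table, 32.7% held a GC box, 12.4% a TATA box, 10.2% the antioxidant core, 6.02% the E-box and 0.0335% direct repeat 1. A match is a description of the letters only.

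Among the named genes, both prostaglandin synthesis genes on the array, Ptgs2 and Ptgis, were dim. Other prostanoid synthases were bright enough to be tested and are given further below. Ptgs2, the inducible cyclooxygenase, was at 20.3, 39.1 and 24.2 in null replicates 1 to 3, against 56.9, 56.1 and 38.2 in control replicates 1 to 3. The highest null mouse, replicate 2, overlapped the lowest control mouse, replicate 3, and these were the 2 females. Ptgis, which turns prostaglandin H into prostacyclin and is made in endothelium and smooth muscle, was at 109.0, 80.4 and 86.4 in null mice, against 32.3, 64.6 and 74.2 in control mice. Its groups did not overlap, as was the case for 11.6% of the 4821 probe sets that did not pass the filter. Neither was tested and no fold is given, since both groups of each lay under the filter level.

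Hpgd encodes the NAD-dependent dehydrogenase that takes the first step of prostaglandin inactivation by oxidizing a hydroxyl group to a ketone. Its probe set was at 420.8, 435.1 and 352.5 in null mice, against 1320.5, 1686.6 and 1476.8 in control mice. The lowest control mouse stood far above the highest null mouse, and the means were 403 ± 44.1 in null and 1495 ± 184 in control mice (SD, n = 3 each). The log2 difference was -1.86 (SE 0.14, 95% interval -2.19 to -1.53), the 38th largest fall of the 7601 probe sets tested.

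Ptgr1 encodes the reductase that takes the next step, saturating a double bond of the ketone, and it also oxidizes leukotriene B. Its values were 1440.1, 1202.2 and 1172.4 in null mice, against 3367.8, 5309.1 and 2836.8 in control mice. The groups did not overlap, and the controls were the more spread, with control replicate 2 well above the other two. Means were 1272 ± 147 in null and 3838 ± 1301 in control mice (SD, n = 3 each), with a log2 difference of -1.54 (SE 0.23, 95% interval -2.06 to -1.02). Ptgr1 was no longer past the threshold without null replicate 1 (log2 difference -1.63), null replicate 3 (-1.48) or control replicate 1 (-1.61), each of which left its size almost as it was.

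Lta4h and Ltc4s act on the same substrate, leukotriene A. Lta4h, the hydrolase that makes leukotriene B, was at 4993.2, 4927.9 and 4827.1 in null mice, against 5186.3, 5206.2 and 5490.0 in control mice. The groups did not overlap, as in 23.8% of all probe sets tested, but the distance was small, with means of 4916 ± 83.7 in null and 5294 ± 170 in control mice (SD, n = 3 each). The log2 difference was -0.11 (SE 0.10, 95% interval -0.33 to 0.12) and was not past the threshold. Its spread within the groups was among the smallest on the array: the pooled SD was 0.037 on the log2 scale, below which lay 0.4% of the probe sets tested, where the median over all of them was 0.212.

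Ltc4s encodes the membrane enzyme that joins leukotriene A to glutathione. Its brighter probe set was at 362.9, 368.4 and 325.3 in null mice, against 630.3, 551.8 and 532.7 in control mice. All null mice were lower than all control mice, with means of 352 ± 23.5 in null and 572 ± 51.7 in control mice (SD, n = 3 each) and a log2 difference of -0.68 (SE 0.13, 95% interval -0.97 to -0.38). This was the smallest difference among the 4 probe sets past the threshold. The call was lost when any 1 of the 6 mice was left out, with log2 differences from -0.73 to -0.61, and under 4 further settings. A second Ltc4s probe set was at 1.3 to 1.8 in null mice and 1.6 to 2.9 in control mice, at the bottom of the scale, and was not tested.

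Ephx2 encodes the soluble epoxide hydrolase, which turns epoxides of arachidonic acid and of other fatty acids into diols. It was at 879.7, 1092.5 and 673.7 in null mice, against 3316.4, 3023.9 and 2657.1 in control mice. The highest null mouse, the female, was still far below every control mouse. Means were 882 ± 209 in null and 2999 ± 330 in control mice (SD, n = 3 each), and the log2 difference was -1.77 (SE 0.19, 95% interval -2.20 to -1.35).

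**Figure D2:**
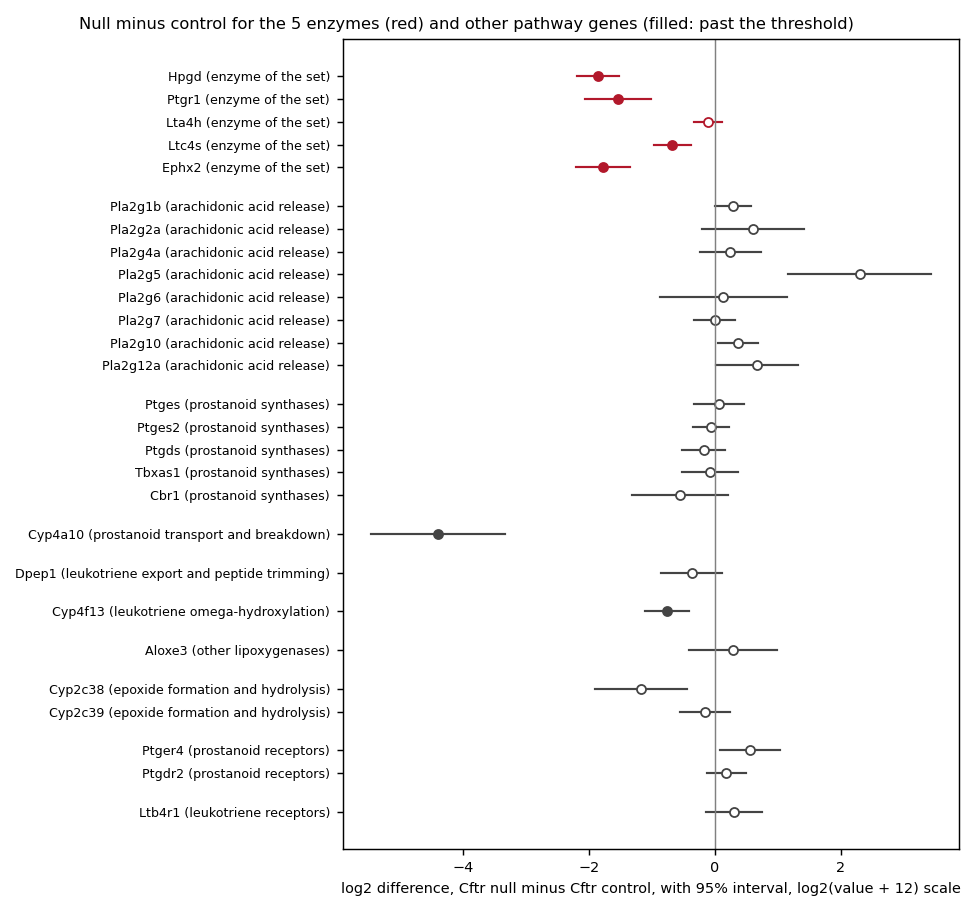
Log2 difference, Cftr null minus Cftr control on the log2(value + 12) scale, with its 95% interval from limma, for the 5 enzymes (red) and for 22 other genes of the same pathways (grey), which are grouped by role. Filled circles were past the threshold of 0.05 for the adjusted p. Hpgd, Ptgr1 and Ephx2 lie between -1.86 and -1.54, Ltc4s at -0.68 and Lta4h at -0.11, while most of the other genes have intervals that span 0.

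Among the null mice, replicate 3 had the lowest value of all 5 tested enzymes, where the same held for 35.5% of all probe sets tested. On the log2 scale its deviation from the null mean was -0.36 for Ephx2, -0.18 for Hpgd, -0.11 for Ptgr1, -0.11 for Ltc4s and -0.03 for Lta4h. The control mice showed no such common order: replicate 2 was highest for Hpgd and Ptgr1, replicate 1 for Ephx2 and Ltc4s, and replicate 3 for Lta4h. Of the 5, Ptgr1 and Ephx2 were the more variable, with pooled SDs of 0.348 and 0.269, and Hpgd and Ltc4s lay under the array's median at 0.167 and 0.111.

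**Figure D3:**
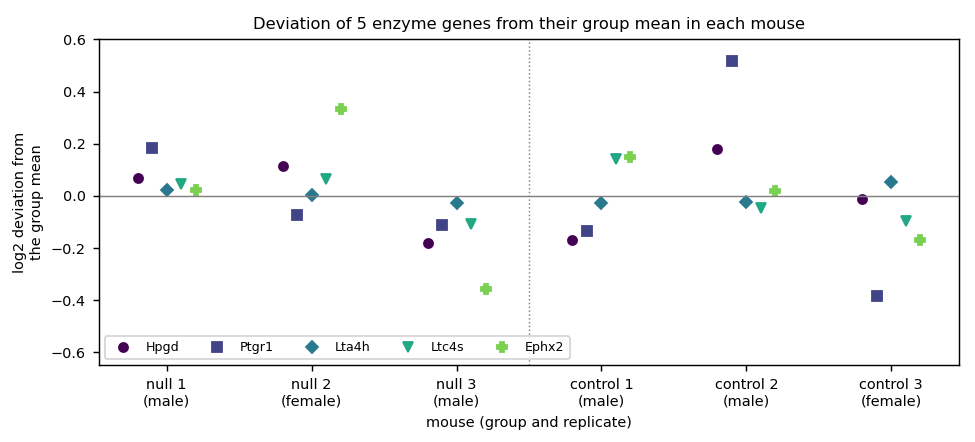
Deviation of each tested enzyme gene from the mean of its own group, on the log2(value + 12) scale, in the 3 null mice (left of the dotted line) and the 3 control mice (right of it). All 5 genes lie below 0 in null replicate 3, and the widest deviation is that of Ptgr1 in control replicate 2, at 0.52.

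Markers of the cells that may hold these transcripts were read beside these differences. Of 10 enterocyte markers, Akp3, an alkaline phosphatase, fell (log2 difference -1.94, limma adjusted p = 0.00398), none rose, and 9 did not pass. Their summed level was 81375 to 121346 in null mice and 137763 to 160173 in control mice, and null replicate 3 was the lowest of the 6. The brightest of them, the apolipoproteins Apoa1 and Apoa4, had log2 differences of -0.12 and -0.63 and did not pass. Lct, the brush border lactase, was at 714.5, 4815.5 and 569.1 in null mice, against 11317.3, 10927.9 and 10865.6 in control mice. Its groups did not overlap, null replicate 2 was well above the other two null mice, and the log2 difference of -3.12 did not pass (limma adjusted p = 0.0606). Fabp2, the intestinal fatty acid binding protein, was at -1.31 (limma adjusted p = 0.0938), again with groups that did not overlap. In these bulk samples fewer cells of a type and less RNA per cell cannot be told apart. The part of the enterocyte markers in the lower levels of Hpgd, Ptgr1 and Ephx2 was not tested.

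Leukotriene C synthase is known from mast cells, eosinophils, macrophages and tuft cells. Of 12 mast cell markers on the array 6 were tested: Mcpt1, Mcpt2 and Cpa3 rose and Kit, Tpsb2 and Gata2 did not pass. A second Cpa3 probe set, not tested, averaged 109 in null and 84.4 in control mice, with groups that overlapped. A second Mcpt1 probe set averaged 1366 in null and 31.5 in control mice. The summed level of the 12 was 4918 to 12568 in null mice and 1119 to 1203 in control mice and was carried in null mice by Mcpt1 and Mcpt2. Mcpt1, Mcpt2 and Cpa3 were above the filter level on all 3 null arrays but on 1, 1 and 0 control arrays, so they were let in through the group where they were high and nothing is read from their count. The 3 tested markers above it on all 6 arrays, Kit, Tpsb2 and Gata2, had log2 differences of -0.04, -0.38 and -0.03. Tpsb2, a mast cell tryptase, averaged 232 in null and 306 in control mice, and Cma1, a chymase that was not tested, 70.8 in null and 87.8 in control mice. Fcer1a and Ms4a2, also not tested, went the other way, at 46.4 and 56.3 on average in null mice, against 4.83 and 13.6 in control mice. Their groups did not overlap, as was the case for 11.6% of all probe sets that did not pass the filter. Of 9 macrophage markers, 7 were tested: Lyz2, a lysozyme with a close copy in Paneth cells from which its probes may not tell it apart, fell (log2 difference -0.82, limma adjusted p = 0.0437), and C1qa and C1qc, the brightest of the complement subunits, were at -0.01 and 0.14 and did not pass. Cd14, a lipopolysaccharide co-receptor, and Cd68, a lysosomal protein, were at 0.46 and 0.25 on the log2 scale, with groups that did not overlap, and did not pass (limma adjusted p = 0.122 and 0.397). The summed macrophage level was 10502 to 10941 in null mice and 11130 to 13970 in control mice. Without Lyz2, a sum added after the values were seen, it was 6605 to 7476 in null mice and 6079 to 6528 in control mice, the other direction. Of the tuft cell markers 2 of 7 were on the array, and the tested one, the transcription factor Pou2f3, was at 269 ± 11.8 in null and 242 ± 14.2 in control mice (SD, n = 3 each; log2 difference 0.15, 95% interval -0.16 to 0.47). All 4 eosinophil markers on the array were under the filter, with sums of 60.3 to 126 in null mice and 50.5 to 107 in control mice, and the brightest, Ccr3, averaged 66.5 in null and 46.1 in control mice. None of these markers was listed at 0. Their part in the lower level of Ltc4s was not tested.

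The vascular and stromal lists bear on Ptgis. The 6 endothelial markers summed to 761 to 975 in null mice and 943 to 1143 in control mice, and 0 of the 5 tested passed; Vwf and Pecam1 were at -0.21 and -0.32 on the log2 scale. The 6 smooth muscle markers summed to 15859 to 20303 in null mice and 8833 to 13272 in control mice; Actg2 rose (log2 difference 1.35, limma adjusted p = 0.0151) and Acta2, at 0.44, did not pass. The 5 fibroblast markers summed to 10766 to 11713 in null mice and 8739 to 9775 in control mice, and 0 of 5 passed, Dcn and Col1a1 being at 0.15 and 0.46. The part of these vascular and stromal markers in the level of Ptgis was not tested. Of 8 neutrophil markers 2 were tested and neither passed (Elane -0.15, Camp -0.03). The 8 summed to 641 to 714 in null mice and 548 to 597 in control mice. Of those not tested, S100a8, S100a9 and Mpo averaged 104, 56.8 and 68.7 in null mice, against 48.0, 11.7 and 41.0 in control mice. Their groups did not overlap, as was the case for 11.6% of all probe sets that did not pass the filter. Cxcr2, also not tested, averaged 42.3 in null and 44.4 in control mice.

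Sex was not used to choose the genes and was tested. In a limma model with genotype and sex, 0 of the 5 enzymes were past the threshold, and at an unadjusted p under 0.05 the number was also 0, where 4.97% of all probe sets tested were. Female minus male was 0.08 for Hpgd (95% interval -0.30 to 0.45), -0.34 for Ptgr1 (-0.86 to 0.17), 0.12 for Ephx2 (-0.36 to 0.60), -0.02 for Ltc4s (-0.37 to 0.32) and 0.04 for Lta4h (-0.22 to 0.31) on the log2 scale. Over all 7601 probe sets, 2 passed this test (0.0263%).

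The interaction of genotype and sex compares the null minus control difference of the females with that of the males. It was past the threshold for 0 probe sets of 7601 in limma, 236 (3.1%) having an unadjusted p under 0.05, and for none of the 5 enzymes at either level. The widest was that of Ephx2, where the log2 difference was -1.27 in females and -2.02 in males, a gap of 0.75 (SE 0.33, 95% interval -0.05 to 1.56, limma unadjusted p = 0.0629). The corresponding gaps were 0.46 for Ptgr1 (-0.60 to 1.53), 0.24 for Ltc4s (-0.52 to 0.999), 0.19 for Hpgd (-0.65 to 1.02) and -0.07 for Lta4h (-0.73 to 0.58). With 1 female per genotype these intervals are wide.

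The other genes of the pathways were taken from lists ordered by role. Of 62 genes listed, 40 were on the array and 22 of these were tested, each by its brightest probe set. In limma 2 fell and 0 rose, where 1.87% of all probe sets tested were lower and 1.13% higher, and 1 of the 2, Cyp4a10, passed the filter through the control group alone. At an unadjusted p under 0.05 there were 3 lower and 4 higher, where 8.17% of all probe sets tested were lower and 9.1% higher. Their median log2 difference was 0.10, against 0.03 over all probe sets tested.

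The 2 that fell were a pair of cytochrome P450 hydroxylases. Cyp4f13, of a family with members that omega-hydroxylate leukotriene B, was at 577.3, 520.6 and 410.3 in null mice, against 881.9, 887.2 and 788.7 in control mice. The groups did not overlap and the log2 difference was -0.76 (SE 0.15, limma adjusted p = 0.0421). That call was lost without any 1 of the mice, with log2 differences from -0.86 to -0.62. Among the settings that kept the probe sets of a gene apart, it was lost under 4 others too. A second, dimmer Cyp4f13 probe set did not pass (-0.66, limma adjusted p = 0.601). Cyp4a10, an omega-hydroxylase of fatty acids, was at 8.3, 45.9 and 41.1 in null mice, against 928.3, 1192.4 and 506.8 in control mice (limma adjusted p = 0.0044). Set against the filter level, since all null mice lay under it, Cyp4a10 was at least 6.88-fold lower. It was tested only because all 3 control arrays were above that level, so it had to differ and its call supports nothing. Its probe set name carries an f, a mark that may stand for possible cross-hybridization. The same mark is on the dimmer Cyp4f13 probe set and on those given for Pla2g12a, Ptgds, Cyp2c38 and Actg2. It is also on the brighter Mcpt1 probe set.

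None of the 8 phospholipases tested passed, and their log2 differences ran from -0.005 (Pla2g7) to 2.30 (Pla2g5). The brightest, Pla2g1b, secreted by the pancreas, and Pla2g12a, a secreted enzyme too, were at 1498 ± 139 and 978 ± 367 in null mice, against 1228 ± 99.4 and 578 ± 50.7 in control mice (SD, n = 3 each; limma adjusted p = 0.293 and 0.277). Pla2g12a did pass without null replicate 2 (limma adjusted p = 0.0162). A dimmer Pla2g12a probe set, not tested, averaged 60.8 in null and 28.7 in control mice, with groups that overlapped. Pla2g5, another secreted phospholipase, was chosen after its values were seen. One of its probe sets was at 185.8, 288.2 and 429.9 in null mice, against 23.7, 38.5 and 110.3 in control mice, and the other at 129.0, 186.7 and 255.7 in null mice, against 56.8, 16.0 and 78.8 in control mice. Neither pair of groups overlapped, and neither probe set passed (limma adjusted p = 0.0537 and 0.102). The brighter one did pass without control replicate 3, its one control array above the filter level (limma adjusted p = 0.0199). The 2 probe sets were above that level on all 3 null arrays but on 1 and 0 control arrays. They were let in through the group where they were high, so nothing is read from these results.

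None of the 5 prostanoid synthases tested passed. The brightest, Cbr1, a carbonyl reductase that can reduce prostaglandin E, and Ptgds, prostaglandin D synthase, were at 1302 ± 516 and 1250 ± 31.3 in null mice, against 1891 ± 622 and 1431 ± 270 in control mice (limma adjusted p = 0.441 and 0.591; SD, n = 3 each). These Ptgds values are of its brightest probe set only. Its other probe sets, under the filter level on every array and not tested, averaged 49.5 and 47.7 in null mice, against 41.3 and 54.3 in control mice. Ptges and Ptges2, which make prostaglandin E, and the thromboxane synthase Tbxas1 had log2 differences of 0.07, -0.07 and -0.08, with 95% intervals of -0.34 to 0.47, -0.35 to 0.22 and -0.53 to 0.37.

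The receptors were mostly dim. Of 9 prostanoid receptors on the array, 2 were tested and 0 passed: Ptger4, a receptor of prostaglandin E, was at 631.5, 562.5 and 942.2 in null mice, against 510.0, 407.4 and 497.9 in control mice (log2 difference 0.55, SE 0.20, limma adjusted p = 0.22). All its null values were higher than all its control values, yet the difference missed the threshold. Ptgdr2, a receptor of prostaglandin D, had a log2 difference of 0.18 (95% interval -0.13 to 0.49). Ltb4r1, the high-affinity receptor of leukotriene B and the one listed leukotriene receptor with a probe set, was at 0.31 (95% interval -0.14 to 0.75).

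Of the remaining lists, Dpep1, a dipeptidase that trims cysteinyl leukotrienes, had a log2 difference of -0.37 (95% interval -0.85 to 0.11). Of 5 other lipoxygenases on the array 1 was tested, Aloxe3, with a log2 difference of 0.28, and Alox15 was at 56.1, 34.7 and 86.5 in null mice, against 25.9, 76.5 and 69.8 in control mice. Among the epoxide genes, Cyp2c38 and Cyp2c39 were at -1.18 (limma adjusted p = 0.102) and -0.16. The groups of Cyp2c38 did not overlap, and it passed without null replicate 2 (adjusted p = 0.0202). Ephx1, the microsomal epoxide hydrolase, was not tested, at 23.6, 34.2 and 37.6 in null mice, against 248.4, 1135.1 and 57.5 in control mice. Its control mice differed among themselves far more than its null mice did.

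**Figure D4:**
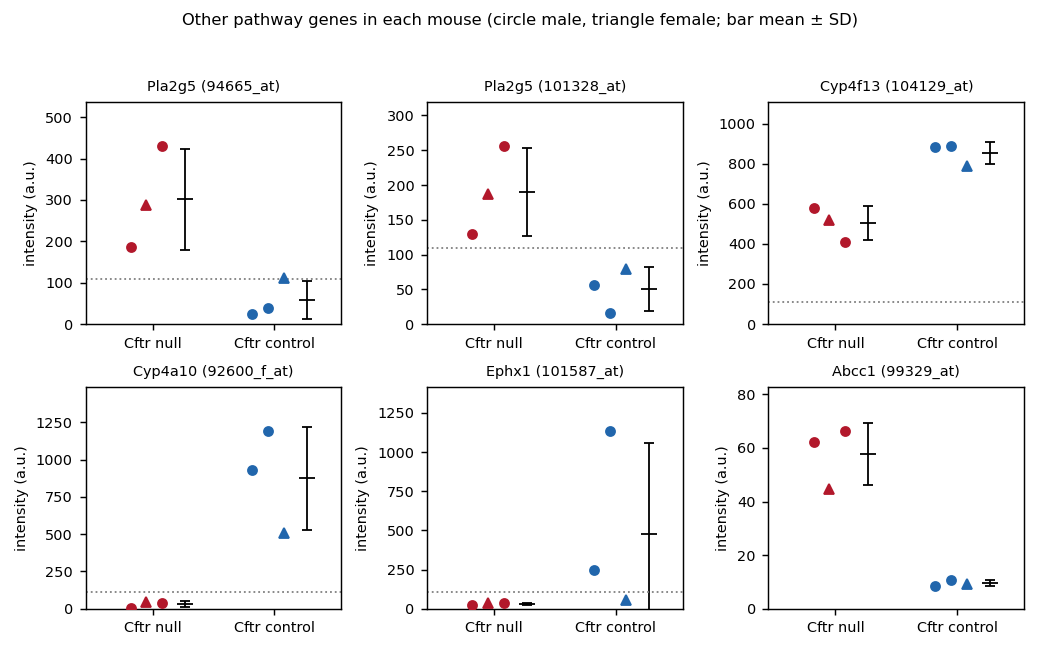
Intensity (arbitrary units, linear axis from 0) of 6 probe sets of other pathway genes in each mouse, with Cftr null in red on the left and Cftr control in blue on the right. Circles are males, triangles females, black bars the mean ± SD (n = 3; the Ephx1 control bar reaches below 0 and is drawn from 0), and the dotted line the filter level of 109.7. Both Pla2g5 probe sets and Abcc1 lie higher in null mice, and Cyp4f13, Cyp4a10 and Ephx1 lower. Cyp4f13 and Cyp4a10 passed the test, neither Pla2g5 probe set did, and Abcc1 and Ephx1 were not tested. Cyp4a10 passed the filter through the control group alone, so its call supports nothing.

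Hpgd had the largest difference of the set, and the genes with the most similar profile over the 6 mice were Acvr2a, an activin receptor (Pearson r = 0.992), Gtf2b, a general transcription factor (0.989), Slc46a1, the proton-coupled folate transporter (0.987), Cyp3a25, a cytochrome P450 (0.986), and St6galnac2, a sialyltransferase (0.986). Their log2 differences were -0.50, -0.91, -1.92, -3.72 and -0.59, so genes of very unlike change share the profile. The 6 points share the split between the genotypes, and 129 of the 7601 probe sets (1.7%) lay above 0.95 with Hpgd.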

How the data were processed

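Total RNA of the small intestine of 6 mice was hybridized to 1-colour Affymetrix arrays, per the labels and the platform annotation. The deposited values are probe set intensity values on a linear scale; their equal trimmed means show scaling before deposit, and the sources used here do not name the software. Detection calls were not used here. Of 12488 probe sets, 66 control sets were left out. The remaining 12422 comprised 10833 with 1 gene symbol, 396 with several and 1193 with none.

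Values were turned into log2(value + 12), 12 being the 10th percentile. Probe sets above 109.7 (the 40th percentile) on at least 3 of 6 arrays were tested with limma 3.58.1 (R 4.3.3; two-sided, eBayes with a trend), and p-values were adjusted by Benjamini-Hochberg over the 7601 probe sets, with a threshold of 0.05. Whether the mice of a group were littermates is not stated, and no batch or pairing was used. The fits were also run on simulated data with independent noise for each probe set and no filter in the fit. That setting differs from these arrays, and nothing is read from it here.

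The genes, lists, tests and alternatives were chosen with earlier results of these data known. All probe sets of the 10 genes were described. Of each pathway list, up to 4 genes past the threshold were named, or else the 2 brightest; of each marker list, its counts, its sums and 2 of the brightest; and the 5 genes most like Hpgd. Further names, such as Pla2g5, Ptges, Ptges2, Tbxas1, Ephx1, Abcc1, C1qc, Akp3, Lct, Fabp2, Cd14, Cd68, Cma1, Kit, Tpsb2 and Gata2, were picked with their values in view. So were Fcer1a, Ms4a2, S100a8, S100a9, Mpo and Cxcr2. The alternatives changed the normalization (quantile, equal medians), the pseudocount (3, 48), the filter (none, 288.7), the covariates (sex), the variance model (no trend, robust) and the mice (males only, each mouse left out), and averaged the probe sets of a gene.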

Additional observations from a re-analysis of the deposited data

How the results depend on the processing

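Each of the 16 other settings kept Hpgd, Ephx2 and Lta4h on their side of the threshold, with log2 differences from -1.94 to -1.77, from -2.02 to -1.60 and from -0.12 to -0.07. Ptgr1 was past the threshold in 13 of the 16 and Ltc4s in 6, and no direction reversed. The number of enzyme probe sets lower in null mice was 4 in the reported fit and 2 to 3 without 1 mouse, with 2 without null replicate 1, null replicate 3 or control replicate 1. Over all probe sets, 86 higher and 142 lower became 50 and 85 in males only, 49 and 92 for eBayes without a trend, and 17 to 68 and 35 to 117 without 1 mouse.

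Of the other pathway genes, 0 higher and 2 lower became 1 and 1 with no filter (Abcc1 higher), with sex as a covariate (Pla2g5 higher) and in males only (Pla2g12a higher). There was 1 higher with 4 times the pseudocount (Pla2g5), 1 lower for eBayes without a trend, 1 lower with the mean over all tested probe sets of a gene, and 0 to 1 higher and 1 to 2 lower without 1 mouse. Pla2g5 passed the filter through the null group, so nothing is read from its calls. The 2 probe sets that differed between the sexes became 1 with quantile normalization or no filter, 0 with 4 times the pseudocount or without a trend, and 0 to 0 without 1 mouse; none of these was an enzyme of the set. The sex test was not run without null replicate 2 or control replicate 3, the one female of each group. The causes were not tested. With no filter, the log2 differences of the dim probe sets were -0.66 for Ptgs2, 0.64 for Ptgis and -0.08 for the second Ltc4s probe set, none past the threshold, and dimness limits what can be said of them. No paired analysis was possible because the labels tie no null mouse to a control mouse; sex, which both groups share, was run as a covariate.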

Other observations

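Of the 40 pathway genes on the array, 18 did not pass the filter and were not tested. The groups of 6 of these did not overlap, where the groups of 11.6% of all probe sets that did not pass it did not. Abcc1, an exporter of leukotriene C, was at 62.2, 44.5 and 66.3 in null mice, against 8.6, 10.6 and 9.4 in control mice. Ggt5, which trims the glutathione of leukotriene C, was at 30.5, 24.4 and 35.7 in null mice, against 62.4, 63.8 and 57.0 in control mice. The prostaglandin E receptor Ptger2 was at 16.1, 41.3 and 35.1 in null mice, against 70.8, 57.3 and 82.9 in control mice. For Ptger1, another receptor of prostaglandin E, the values were 18.4, 24.7 and 24.4 in null mice, against 26.2, 28.9 and 65.6 in control mice. The thromboxane receptor Tbxa2r was at 153.5, 235.6 and 82.3 in null mice, against 73.0, 77.2 and 75.7 in control mice. The sixth was Ephx1. Of the 6, 4 were under 109.7 on every array, while Tbxa2r (null replicates 1 and 2) and Ephx1 (control replicates 1 and 2) were above it on 2 arrays each, short of the 3 needed. None of these differences was tested in the reported fit. With no filter, Abcc1 was past the threshold (log2 difference 1.68, limma adjusted p = 0.0237), with every value under 109.7.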
